A study of Mus musculus with 6 samples.

Results

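The P2X receptors are cation channels in the cell membrane that open when extracellular ATP binds to them. Mice have 7 genes for their subunits, P2rx1 to P2rx7, and all 7 were measured among the 22180 genes of the arrays. The members are the whole gene family, and the family was chosen by measured values: P2rx4 and P2rx7 had higher intensities in knockdown stem cells than in control stem cells. The differences between knockdown and control stem cells are therefore given for these genes as a description only. Each member had 1 probe set that named it alone, and no probe set named a member together with another gene.

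RNA came from mouse embryonic stem cells infected with a lentivirus for a short hairpin RNA (shRNA): one against Chd4, one against Mbd3, or a control. Both targets code for subunits of NuRD, a chromatin complex that remodels nucleosomes and deacetylates histones, and Chd4 is its ATPase. Each line was sampled after 4 days of neural differentiation as aggregates in low-adhesion plates with medium containing KSR, called day 4, and as stem cells on gelatin in medium with serum and leukemia inhibitory factor, called day 0. The 6 groups were thus Chd4 knockdown, Mbd3 knockdown and control at day 4, and Chd4 knockdown, Mbd3 knockdown and control at day 0. All of them, controls included, were infected with a lentivirus, and the hairpin sequences, the parent line and whether a line was 1 clone or a pool are not given in the sources used here. Each group had 1 array, so no value has a replicate error and a difference between 2 arrays has no test; precision is limited by how few arrays there are.

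A P2X channel is a trimer of subunits, each with a pair of membrane-spanning segments, a large extracellular part that binds ATP, and both ends inside the cell. Opening lets sodium and calcium in and potassium out. P2X1 is best known from platelets and smooth muscle, P2X2 and P2X3 from sensory neurons, and P2X4 and P2X7 from macrophages and microglia. P2X4 resides largely in lysosomes. P2X7 needs much more ATP than the other subunits, has a long intracellular tail, and in macrophages triggers the NLRP3 inflammasome through loss of potassium.

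The labels were checked first. Chd4 had an intensity of 290 in Chd4-knockdown cells against 973 in control cells at day 0, and 727 against 1021 at day 4. Mbd3 had an intensity of 92.8 in Mbd3-knockdown cells against 216 in control cells at day 0, and 138 against 183 at day 4. The summed intensity of 10 stem cell markers was 10349 under Chd4 knockdown and 8853 under Mbd3 knockdown at day 4, against 3557 in control. At day 0 it was 13107 under Chd4 knockdown and 12579 under Mbd3 knockdown, against 14386 in control. The sum of 10 early neural markers was 746 under Chd4 knockdown and 1090 under Mbd3 knockdown at day 4, against 5581 in control, and 416 to 481 at day 0. The day 4 arrays of the knockdowns thus carried more stem cell and less neural signal than the day 4 control array, and the part of those markers in the day 4 differences was not tested. In RNA from whole cultures, fewer cells of a type and less RNA per cell cannot be told apart.

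P2rx7 and P2rx4 were the members with the widest range over the arrays. Without a detection call, the median intensity of all probe sets on an array, 39.6 to 41.4, served as the mark between dim and brighter genes. P2rx7 and P2rx4 lay above it on all 6 arrays, P2rx2 and P2rx5 on 5 of 6, and P2rx1, P2rx3 and P2rx6 on 0 of 6. The highest P2rx7 intensity was 10.4-fold the lowest, a log2 range of 3.38, and P2rx4 had a log2 range of 1.54 and P2rx2 of 1.02. The log2 ranges of P2rx1, P2rx3, P2rx5 and P2rx6 were 0.36, 0.33, 0.33 and 0.17, below the median log2 range of 0.39 over all genes. A log2 range of 1 or more was found for 3 of the 7 members and for 3097 of the 22180 genes. Nothing is read from that count, since the range of P2rx4 is its difference between Chd4-knockdown and control stem cells, and the highest P2rx7 value is that of Chd4-knockdown stem cells, both used to choose the family.

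**Figure D1:**
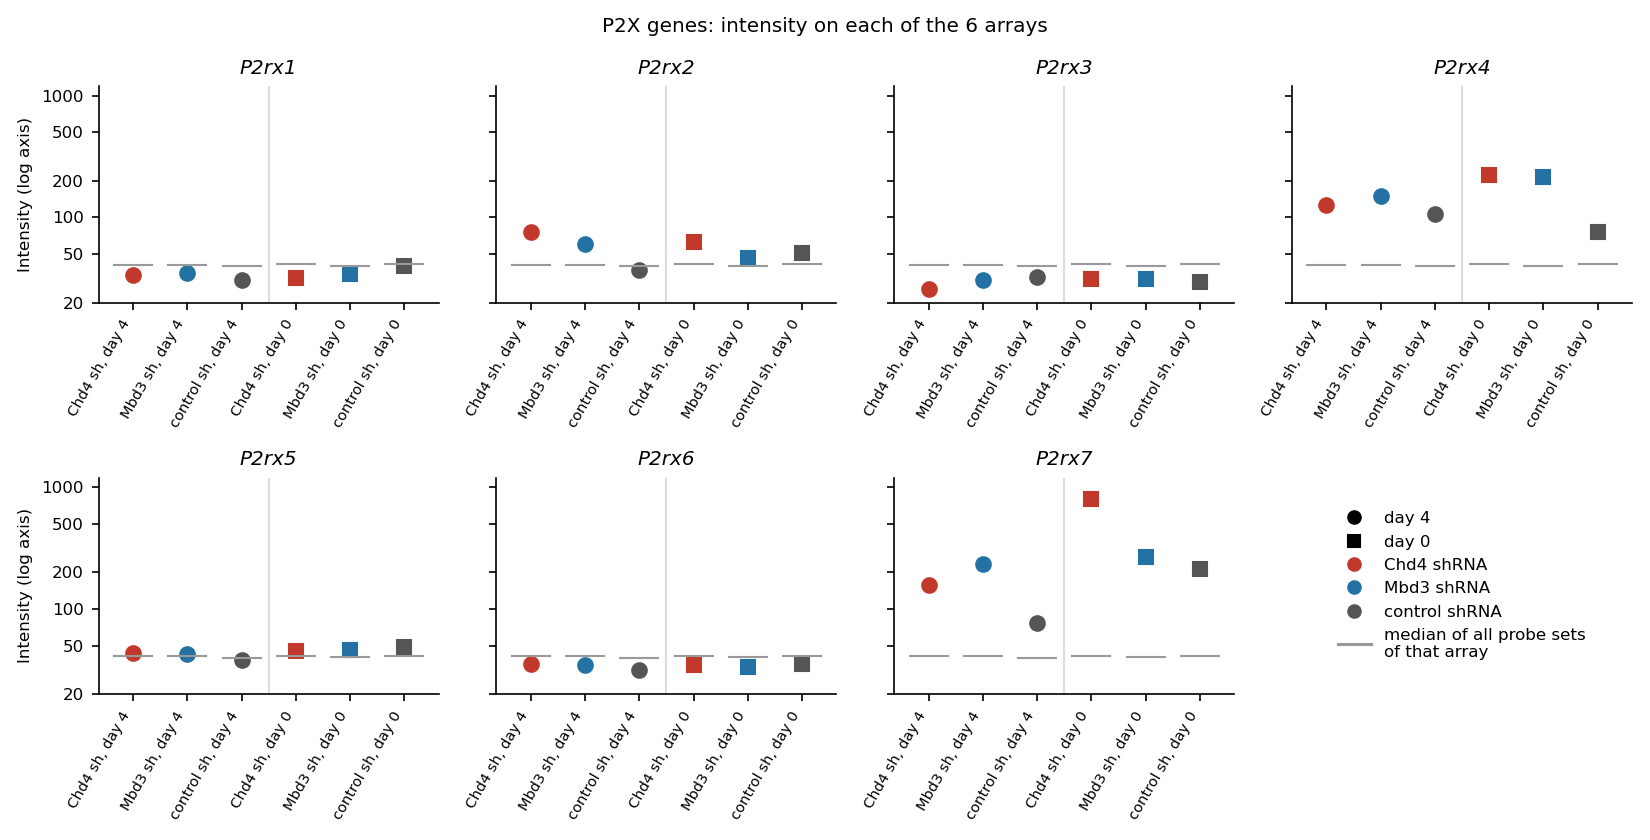
Intensity of each P2X gene (log axis) on the 6 arrays, 1 point per array, with circles for day 4, squares for day 0, colours for the shRNA, and a grey bar for the median of all probe sets of that array. P2rx7 reaches 792 in Chd4-knockdown stem cells, P2rx4 stands above 200 in both knockdowns at day 0 only, and P2rx1, P2rx3 and P2rx6 stay under the grey bars on every array.

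P2rx7 had intensities of 157 under Chd4 knockdown and 233 under Mbd3 knockdown at day 4, against 76.3 in control. At day 0 it had 792 under Chd4 knockdown and 265 under Mbd3 knockdown, against 212 in control. The array of Chd4-knockdown stem cells stood far above the others, and the control at day 4 was the lowest. In order from high to low the arrays ran Chd4 knockdown at day 0, Mbd3 knockdown at day 0, Mbd3 knockdown at day 4, control at day 0, Chd4 knockdown at day 4 and control at day 4. With 1 array per group, no neighbours in this order can be shown to differ beyond their spread.

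P2rx4 had intensities of 126 under Chd4 knockdown and 151 under Mbd3 knockdown at day 4, against 106 in control. At day 0 it had 223 under Chd4 knockdown and 214 under Mbd3 knockdown, against 76.5 in control. Here both knockdowns at day 0 stood together at the top, and the control at day 0 was the lowest array. The order from high to low was Chd4 knockdown at day 0, Mbd3 knockdown at day 0, Mbd3 knockdown at day 4, Chd4 knockdown at day 4, control at day 4 and control at day 0. In each of the days both knockdown arrays were above the control array, for P2rx4 as for P2rx7. At day 0 this direction was part of the choice of the family. On each day both knockdowns were set against the same control array.

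P2rx7 and P2rx4 are direct neighbours on mouse chromosome 5, on the same strand, with P2rx7 at the lower coordinates. Their start regions are shown because the pair was high together in Chd4-knockdown stem cells. The sequences are RefSeq's for assembly GRCm38.p6, from 250 bases before the annotated start to 50 bases from it on, both on the plus strand, at chr5:122643677-122643976 for P2rx7 and chr5:122707294-122707593 for P2rx4. Capitals mark GC boxes (GGGCGG) and AP-1 motifs (TGANTCA), each searched on both strands.
P2rx7: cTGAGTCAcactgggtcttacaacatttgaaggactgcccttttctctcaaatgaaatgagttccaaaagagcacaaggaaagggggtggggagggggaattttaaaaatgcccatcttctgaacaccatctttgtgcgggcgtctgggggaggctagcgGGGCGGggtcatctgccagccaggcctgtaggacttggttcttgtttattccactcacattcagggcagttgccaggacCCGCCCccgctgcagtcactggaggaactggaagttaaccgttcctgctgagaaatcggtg
P2rx4: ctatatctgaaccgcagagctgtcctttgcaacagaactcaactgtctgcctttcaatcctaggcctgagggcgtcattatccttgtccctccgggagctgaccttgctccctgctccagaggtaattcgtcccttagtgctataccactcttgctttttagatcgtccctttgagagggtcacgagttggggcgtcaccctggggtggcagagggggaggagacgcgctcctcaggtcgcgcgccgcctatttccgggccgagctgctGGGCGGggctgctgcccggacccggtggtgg
The P2rx7 window held 2 GC boxes, which begin 90 and 11 bases before the start, and 1 AP-1 motif near its far end. The P2rx4 window held 1 GC box, which begins 19 bases after the start, and no AP-1 motif. Of 32851 mouse promoter windows of the same length, 35.7% held a GC box and 7.81% an AP-1 motif. The letters TATAAA (in 13.6% of the windows), CCAAT (37.4%) and CACGTG (7.15%) stood in neither window. The P2rx4 window had 18 CpG dinucleotides, more than 70.3% of all windows, and the P2rx7 window had 8, close to the median of 7. RefSeq lists a second P2rx7 start, whose window had 4 CpG and none of the motifs. Sequences were matched for 4 of the 7 members, with 5 windows in all. In the other matched windows, that of P2rx6 held 1 GC box, 1 TATAAA and 1 CCAAT, and that of P2rx1 none of the motifs. These matches describe letters and show no binding.

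The first comparisons set each knockdown against control in stem cells. In Chd4-knockdown cells at day 0, P2rx7 was 3.73-fold and P2rx4 2.91-fold higher than in control, log2 differences of 1.90 and 1.54. P2rx7 ranked 3 and P2rx4 13 from the top of 13446 genes compared. A gene was compared where its brighter array reached that array's median. The 4 members compared were P2rx2, P2rx4, P2rx5 and P2rx7, here and in all other comparisons of 2 arrays. Of these, 2 passed 2-fold, where 1.26% of all genes compared did in either direction. Since these differences chose the family, nothing is read from that count. The remaining members lay between -0.33 for P2rx1 and 0.30 for P2rx2 on the log2 scale.

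In Mbd3-knockdown cells at day 0, P2rx4 was 2.79-fold higher than in control, a log2 difference of 1.48 and rank 2 of 13389 genes, while P2rx7 was 1.25-fold higher, a log2 difference of 0.32. P2rx4 was thus 1 of 4 members past 2-fold, where 0.680% of all genes compared were, and again nothing is read from this. P2rx2 stood at -0.13, P2rx5 at -0.08, P2rx1 at -0.20, P2rx6 at -0.08 and P2rx3 at 0.07. Both day 0 comparisons use the same control array. Set directly against the Mbd3 knockdown at day 0, the Chd4 knockdown had 2.98-fold more P2rx7 signal, rank 11 of 13314 genes, and 1.04-fold as much P2rx4 signal. P2rx7 was 1 of 4 members past 2-fold there, where 1.05% of all genes compared were; these are arrays that the choice of members used.

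**Figure D2:**
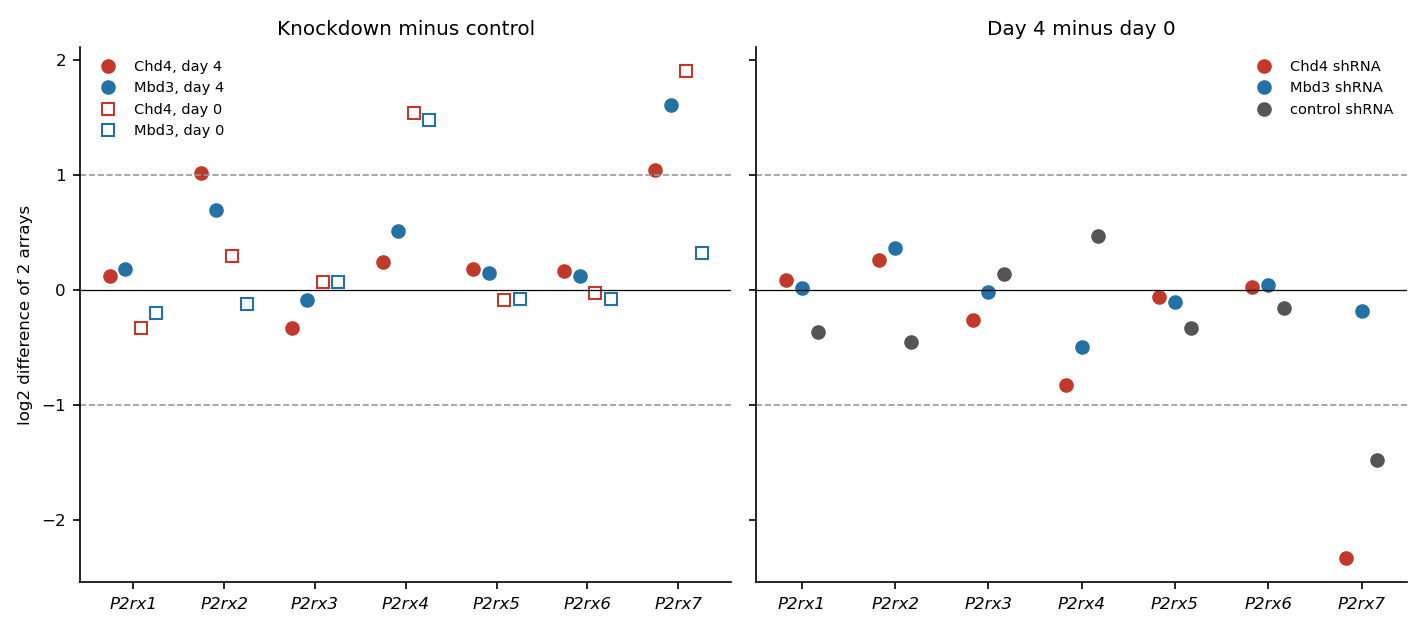
Log2 difference of 2 arrays for each P2X gene, with the knockdowns minus control on the left (filled circles for day 4, open squares for day 0) and day 4 minus day 0 in each line on the right; dashed lines mark 2-fold. P2rx4 is past 2-fold in both knockdowns at day 0 and in neither at day 4, P2rx7 is past it in every knockdown comparison of the left panel but the Mbd3 knockdown at day 0, and P2rx2 just reaches it there in the Chd4 knockdown at day 4. On the right, P2rx7 is past 2-fold in the Chd4 knockdown and in control, and at -0.19 in the Mbd3 knockdown.

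The day 4 arrays were not used to choose the family. P2rx7 was higher than in control there too, by 2.06-fold in the Chd4 knockdown (log2 difference 1.04, rank 637 of 13733 genes) and by 3.05-fold in the Mbd3 knockdown (1.61, rank 139 of 13588). P2rx4 was 1.19-fold higher in the Chd4 knockdown and 1.43-fold higher in the Mbd3 knockdown, log2 differences of 0.25 and 0.51, and passed 2-fold in neither. P2rx2, known from sensory neurons, had intensities of 75.3 under Chd4 knockdown and 60.3 under Mbd3 knockdown, against 37.2 in control. Its log2 differences were 1.02 and 0.69, but the control value lies among the dim genes. With values under 41.4, the highest array median, set to 41.4, they were 0.86 and 0.54.

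In the Chd4 knockdown at day 4, P2rx7 and P2rx2 made 2 of 4 members past 2-fold, where 11.7% of all genes compared were, and in the Mbd3 knockdown P2rx7 made 1 of 4, where 8.34% of all genes were. The P2rx2 call in the Chd4 knockdown was lost with arrays shifted to a common median (0.98), with quantile normalization (0.96) and with the floor. Over all 7 members, with the dim P2rx1, P2rx3 and P2rx6 that were not compared, the median log2 difference was 0.18 in both knockdowns. The medians of -0.04 and -0.06 over all genes compared leave such dim genes out, so the 2 sets are unlike. The member medians were the values of P2rx5 in the Chd4 and P2rx1 in the Mbd3 knockdown, and with the floor these were 0.07 and 0. P2rx3 stood at -0.33 under Chd4 knockdown and -0.09 under Mbd3 knockdown. P2rx1, P2rx5 and P2rx6 lay between 0.12 and 0.18. The 2 comparisons share their control array. Between the knockdowns at day 4, with the Mbd3 knockdown as the base, P2rx7 differed by -0.57 and P2rx4 by -0.27. None of the 4 members passed 2-fold there, where 1.10% of all genes compared did.

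The knockdown effects of day 4 and day 0 were set side by side. For P2rx4 the effect of the Chd4 shRNA was 0.25 at day 4 and 1.54 at day 0, and that of the Mbd3 shRNA 0.51 at day 4 and 1.48 at day 0. For P2rx7 the effect of the Chd4 shRNA was 1.04 at day 4 and 1.90 at day 0, while that of the Mbd3 shRNA was 1.61 at day 4 and 0.32 at day 0. The targets moved as well: the log2 difference of Chd4 in its knockdown was -0.49 at day 4 and -1.75 at day 0, and that of Mbd3 in its knockdown -0.41 at day 4 and -1.22 at day 0. The part of the remaining knockdown in these P2X differences was not tested, nor was the difference between the days, and the day 0 effects of P2rx4 and P2rx7 are those that chose the family.

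Day 4 was then set against day 0 within each line, to see how the channels behaved over neural differentiation. For P2rx4 and P2rx7 this is a description, since their high day 0 values in knockdown cells chose the family and favour a lower value at day 4. P2rx7 was lower at day 4 in all 3 lines. Its log2 differences were -2.33 in the Chd4 knockdown, rank 4 from the bottom of 13406 genes, -0.19 in the Mbd3 knockdown, and -1.48 in control. P2rx4 was lower at day 4 in both knockdowns, at -0.83 under Chd4 knockdown and -0.50 under Mbd3 knockdown, and higher in control, at 0.47. P2rx2 went the opposite way, at 0.26 under Chd4 knockdown and 0.36 under Mbd3 knockdown and -0.46 in control.

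P2rx7 was the 1 member of 4 past 2-fold between the days in the Chd4 knockdown, where 2.86% of all genes compared were, and in control, where 12.8% were. None of the 4 passed in the Mbd3 knockdown, where 2.70% of all genes did. P2rx5 was lower at day 4 in each line, between -0.33 in control and -0.06 in the Chd4 knockdown. The dim members P2rx1, P2rx3 and P2rx6 differed by at most 0.36 in size.

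Over the 3 lines together, limma with shRNA and day as additive terms gave P2rx7 a log2 difference of -1.33 (SE 0.42) between day 4 and day 0. Its adjusted p = 0.283, with an unadjusted p = 0.0274. The fit includes the day 0 knockdown arrays on which P2rx7 and P2rx4 were chosen for being high. That choice favours a lower value at day 4, so nothing is read from their estimates or p-values. P2rx4 was at -0.29 (SE 0.28), P2rx5 at -0.17 (SE 0.13) and P2rx2 at 0.06 (SE 0.20), with limma's adjusted p between 0.554 and 0.907. No member of the 4 tested was called, nor was any of the 12926 genes (0%), of which 1962 had an unadjusted p under 0.05. The fit has 2 residual degrees of freedom and takes a day difference that varies between lines, as that of P2rx4 did, for error. Without the control line limma called P2rx4, at -0.66 with an adjusted p = 0.0463, with 683 genes called in all. That fit takes as its base the day 0 knockdown arrays on which P2rx4 was chosen for being high, so nothing is read from this call. Over all alternatives the adjusted p ran from 0.0463 to 0.989 for P2rx4 and from 0.130 to 0.750 for P2rx7. The fit without control treats the 2 knockdowns as replicates of each other.

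Because P2rx7 and P2rx4 lie side by side, the genes around them were read as well. They were the 4 nearest measured protein-coding genes on the outer side of each: Gpn3, Anapc7, Atp2a2 and Ift81 before P2rx7, and Camkk2, Anapc5, Rnf34 and Orai1 after P2rx4. At day 0 these 8 genes lay between -0.50 (Rnf34) and 0.31 (Anapc5) in the Chd4 knockdown. In the Mbd3 knockdown at day 0 they lay between -0.06 (Anapc5) and 0.49 (Gpn3). In the same 2 comparisons P2rx7 was at 1.90 and 0.32, and P2rx4 at 1.54 and 1.48. These P2X values chose the family, so nothing is read from their distance to the neighbours. At day 4 the 8 neighbours lay between -0.93 and 0.74 in the Chd4 and between -0.88 and 0.61 in the Mbd3 knockdown. Ift81, an intraflagellar transport gene, was lowest and Gpn3 highest in both. None of the 8 passed 2-fold in any of the 4 knockdown comparisons. Of all genes compared, 1.26% (Chd4) and 0.680% (Mbd3) did at day 0, and 11.7% and 8.34% at day 4. Nothing is read from this count.

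Camkk2, which encodes a calcium-dependent kinase, overlaps P2rx4 in the annotation. Its intensity was 62.8 under Chd4 knockdown and 75.6 under Mbd3 knockdown at day 4, against 67.0 in control, and 70.4 and 73.4 against 73.7 at day 0. Its log2 differences at day 0 were -0.07 and -0.01, where those of P2rx4 were 1.54 and 1.48. The P2rx4 values are among those that chose the family, so nothing is read from this contrast. P2rx1 and P2rx5 are near neighbours on chromosome 11. Of the other genes around P2rx1, Atp2a3, a calcium pump gene directly beside it, had an intensity of 115 in Chd4-knockdown stem cells, against 50.4 in control, a log2 difference of 1.19, while P2rx1 itself was at -0.33.

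**Figure D3:**
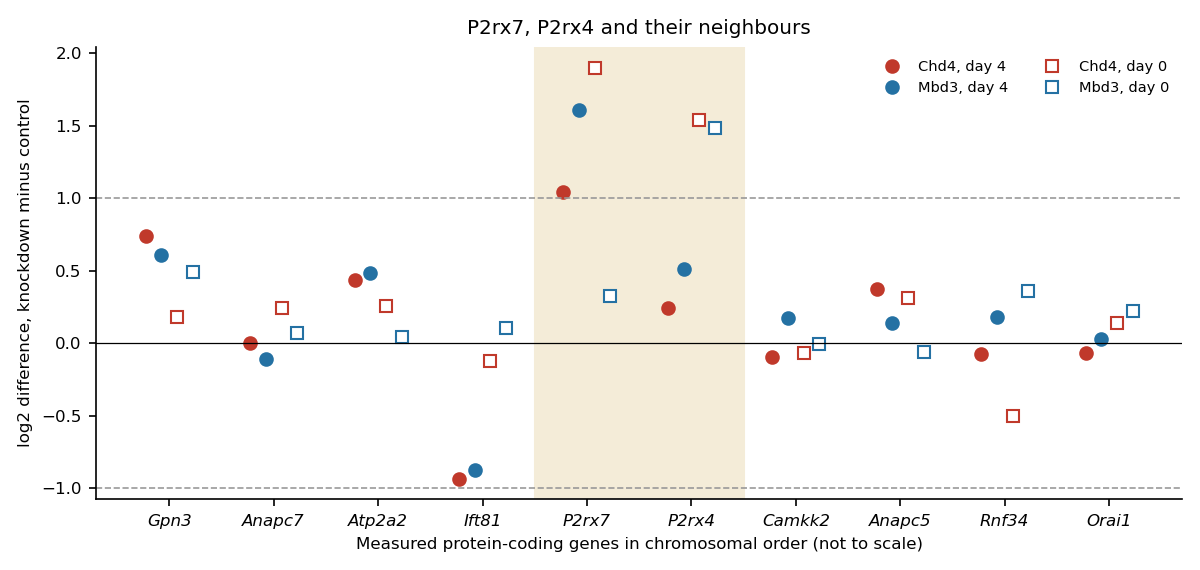
Log2 difference, knockdown minus control, for P2rx7, P2rx4 (shaded) and 8 measured protein-coding neighbours in chromosomal order, with filled circles for day 4 and open squares for day 0; distances are not to scale and dashed lines mark 2-fold. Only the 2 P2X genes pass the upper line, and Ift81 comes nearest to the lower one at day 4. The day 0 values of the 2 P2X genes chose the family, so nothing is read from their height there.

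The profiles of P2rx7 and P2rx4 were compared over the 6 arrays. Their log2 intensities correlated at Pearson's r = 0.66 and Spearman's rho = 0.83, and at r = 0.89 over the 4 arrays that remain without the 2 farthest from the P2rx4 median (Chd4 knockdown and control at day 0). These 6 points share lines and days, and 3 of them are the day 0 arrays on which both genes were chosen for being high in knockdown cells. The correlations, and the likeness to other genes below, therefore rest in part on the values that chose the genes and are a description only. Among 2881 genes that reached the median of all probe sets on average and had a log2 range of 1 or more, those most like P2rx7 were Lgals1, which encodes galectin-1 (r = 0.99), Xaf1 (0.98), the chemokine gene Cxcl16 (0.97), Hexim1 (0.97) and Arhgef16 (0.97). Lgals1 had intensities of 370 under Chd4 knockdown and 417 under Mbd3 knockdown at day 4, against 250 in control, and 743 and 467 against 461 at day 0. Like P2rx7, it was highest in Chd4-knockdown stem cells and lowest in the control at day 4.

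The genes most like P2rx4 were Dnm1, which encodes dynamin-1 (r = 0.91), Cdcp1 (0.89), Ctsa, which encodes the lysosomal protein cathepsin A (0.85), Tmem150a (0.85) and Cep170b (0.85). Dnm1 had intensities of 97.2 under Chd4 knockdown and 146 under Mbd3 knockdown at day 4, against 110 in control, and 206 and 248 against 97.8 at day 0. Ctsa had 507 and 527 against 434 in control at day 4, and 871 and 812 against 505 at day 0. Both were high in the 2 knockdowns at day 0. Ranked by Spearman's rho, 2 of these 5 genes and 1 of the 5 for P2rx7 stayed among the most alike.

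**Figure D4:**
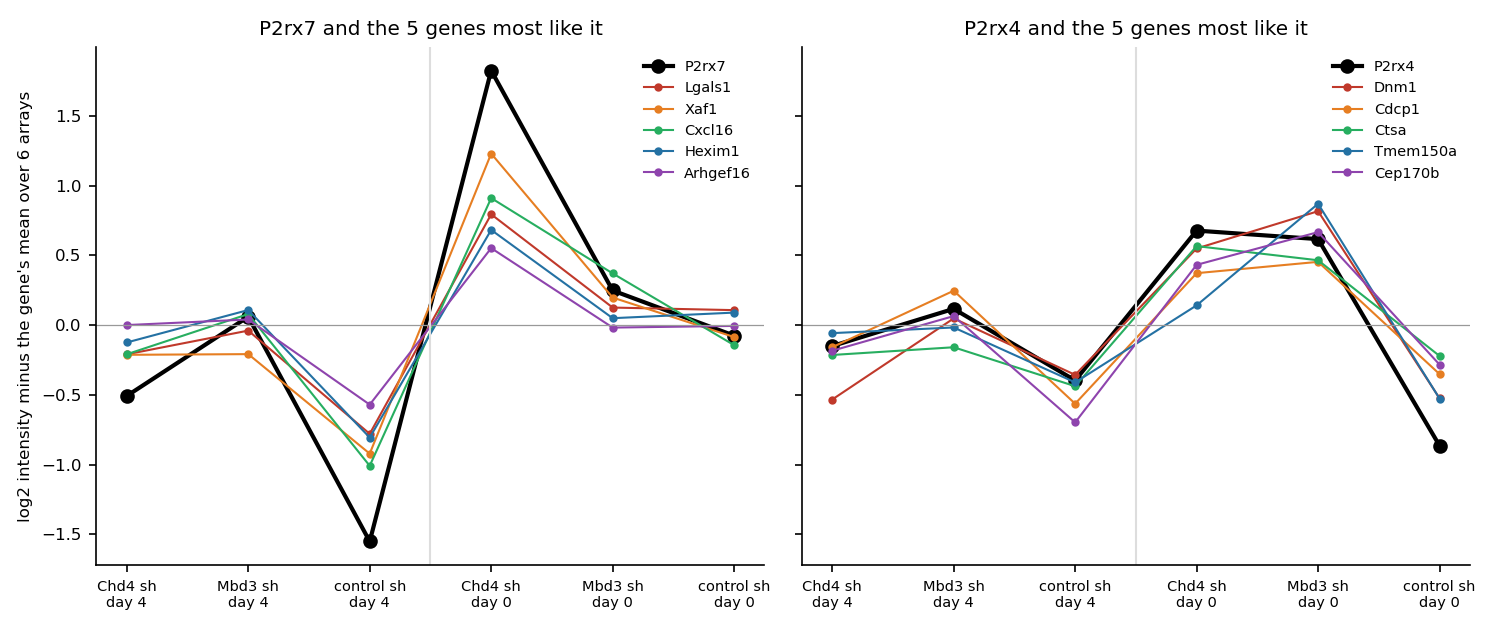
Log2 intensity minus each gene's own mean over the 6 arrays, for P2rx7 (left, black) and P2rx4 (right, black) with the 5 genes of highest Pearson correlation to each (coloured); lines only join the points of a gene. The P2rx7 group peaks in Chd4-knockdown stem cells and is lowest in the day 4 control, and the P2rx4 group is high in both knockdowns at day 0.

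P2X4 and P2X7 are known from macrophages and microglia, so markers of those cells were read on the same arrays. Of 16 such markers, 8 lay under the array median on all 6 arrays, among them Ptprc (21.6 to 22.6), Csf1r, Aif1, Adgre1, Itgam and Tyrobp. Others reached the median on all 6 arrays, among them Cx3cr1 (55.0 to 68.6), Trem2 (51.0 to 55.7) and C1qa (50.6 to 68.5). Spi1 had 64.8 under Chd4 knockdown and 44.1 under Mbd3 knockdown at day 0, against 45.0 in control. The summed intensity of the 16 was 1009 under Chd4 knockdown and 973 under Mbd3 knockdown at day 4, against 719 in control. At day 0 it was 1285 and 1311 against 1331. The brightest were Cd68 and Laptm5. Laptm5 had 215 under Chd4 knockdown and 128 under Mbd3 knockdown, against 61.7 in control, at day 4, and 420 and 337 against 329 at day 0. Cd68 had 256 and 269 against 153 at day 4, and 287 and 438 against 434 at day 0, so that in Chd4-knockdown stem cells it was lower than in control (-0.59) while Laptm5 was higher (0.35). Fcer1g, an Fc receptor subunit gene, was at 0.57 under Chd4 knockdown and 1.29 under Mbd3 knockdown at day 4, past 2-fold only under Mbd3 knockdown. The sums of 8 sensory neuron markers ran from 318 to 466, and Scn10a, Trpv1 and Tac1 among them were under the median on every array. Smooth muscle markers summed to 536 to 938, platelet and mast cell markers to 450 to 781, and fibroblast markers to 383 to 525. The highest of these sums were not in Chd4-knockdown stem cells, where P2rx7 was highest, apart from that of the fibroblast list at 525, against 436 in control. The part of these cell types in the P2X values was not tested.

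Other genes that receive, release, degrade or act on extracellular ATP were read next. P2Y receptors are the G protein-coupled receptors for nucleotides. All 8 were measured and 2, P2ry2 and P2ry6, were bright enough to compare. P2ry6, a receptor for UDP, had an intensity of 109 under Chd4 knockdown and 57.9 under Mbd3 knockdown at day 0, against 53.0 in control, and 74.2 and 54.7 against 48.9 at day 4. Its log2 difference of 1.04 in Chd4-knockdown stem cells was the 1 P2Y difference past 2-fold, and P2ry2 was at 0.04 there. In that comparison 1.26% of all genes passed 2-fold. The adenosine receptor list had 1 measured gene, Adora3, which was dim on all arrays.

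Of 14 genes for ATP release and vesicular loading, 12 were compared at day 0 under Chd4 knockdown and 11 under Mbd3 knockdown. Of these 0 passed 2-fold, where 1.26% (Chd4) and 0.680% (Mbd3) of all genes compared did. At day 4, 11 were compared for each shRNA. Under Chd4 knockdown 2 were higher and 1 lower by 2-fold or more, where 11.7% of all genes compared passed 2-fold in either direction. Under Mbd3 knockdown 1 was higher, where 8.34% of all genes compared passed 2-fold. Nothing is read from these counts. Slc17a9, the vesicular nucleotide transporter, had 162 and 153 against 70.8 in control at day 4, log2 differences of 1.20 and 1.11. Slco2a1, an organic anion carrier, had 154 and 68.6 against 60.2. Panx1, which encodes the ATP-releasing channel pannexin-1, had 98.3 and 109 against 200, at -1.03 and -0.88. The list medians were 0.05 and 0.08, near those over all genes (-0.04 and -0.06).

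Of 15 measured genes for ectonucleotidases and nucleoside handling, 11 were compared at day 4 in each knockdown. The Chd4 knockdown had 5 that were higher by 2-fold or more and the Mbd3 knockdown had 4, with 0 lower by as much in either. Of all genes compared, 697 of 13733 were higher by 2-fold or more under Chd4 knockdown and 468 of 13588 under Mbd3 knockdown. The list medians were 0.98 and 0.43. Dpp4, a peptidase that binds adenosine deaminase, had 337 and 169 against 44.9, at 2.91 and 1.92. Enpp3, a nucleotide pyrophosphatase, had 1596 and 1835 against 708, and the adenylate kinase gene Ak1 226 and 199 against 94.3. Acpp, an acid phosphatase, and the nucleoside transporter gene Slc29a1 were past 2-fold in the Chd4 knockdown, at 1.31 and 1.16. In the Mbd3 knockdown they were at 0.27 and 0.93. Alpl, alkaline phosphatase, was past 2-fold in the Mbd3 knockdown at 1.06, and at 0.98 in the Chd4 knockdown. In control cells, day 4 against day 0, 5 of the 11 genes compared were lower by 2-fold or more, where 650 of 13831 genes were, and 0 were higher by as much. The median over the 11 was -0.87, and Entpd1, an ATP-degrading enzyme gene, was at 0.22, while the stem cell marker sum was 3557 at day 4 and 14386 at day 0. At day 0, Enpp3 was the 1 gene of 10 compared past 2-fold, at 658 in the Chd4 knockdown, against 1603 in control. In that comparison 1.26% of all genes passed 2-fold.

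Genes through which P2X7 acts in immune cells were read too. Of 9 inflammasome and cytokine genes, 4 were compared at day 0, and 0 of these passed 2-fold in either knockdown. The shares over all genes compared were 1.26% (Chd4) and 0.680% (Mbd3), so nothing is read from 0 of 4. Medians over the 4 were -0.13 and -0.04. Nlrp3 lay between 31.5 and 37.9 and Casp1 between 21.1 and 21.9 on all arrays, under the array medians, and Il1b was at most 26.9. Of the 9 genes, 4 reached the median on all 6 arrays: Pycard, which encodes the inflammasome adaptor (72.9 to 113), Nek7, a kinase gene of NLRP3 activation (157 to 284), Gsdmd, the pore-forming gasdermin D gene, and Txnip. Txnip, a redox regulator that binds NLRP3, was the 1 gene of 5 compared that passed 2-fold at day 4. It had 72.5 in the Mbd3 knockdown, against 302 in control. In that comparison 8.34% of all genes passed 2-fold. Of 14 calcium and kinase partners, all compared, 0 passed 2-fold at day 0. At day 4 Camk2d, a calcium-dependent kinase gene, was the 1 gene past it, with 42.2 in the Chd4 knockdown, against 98.4 in control. In that comparison 11.7% of all genes passed 2-fold, and nothing is read from these counts.

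Other ligand-gated cation channels were the closest functional relatives on the arrays. Of 25 measured, 0 of 13 compared in the Chd4 knockdown and 0 of 14 in the Mbd3 knockdown passed 2-fold at day 0. The shares over all genes compared were 1.26% and 0.680%, and the list medians were 0.02 and 0.08. At day 4, 5 of 17 compared were lower by 2-fold or more in each knockdown and 0 were higher by as much, with medians of -0.58 and -0.67. Of all genes compared, 912 of 13733 were lower by 2-fold or more under Chd4 knockdown and 665 of 13588 under Mbd3 knockdown. Chrna3, a nicotinic receptor subunit gene, had 36.3 and 38.6 against 427 in control, and Gria3, a glutamate receptor subunit gene, 65.7 and 61.7 against 145. P2rx7 differed from control in the other direction on the same arrays, by 1.04 and 1.61.

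**Figure D5:**
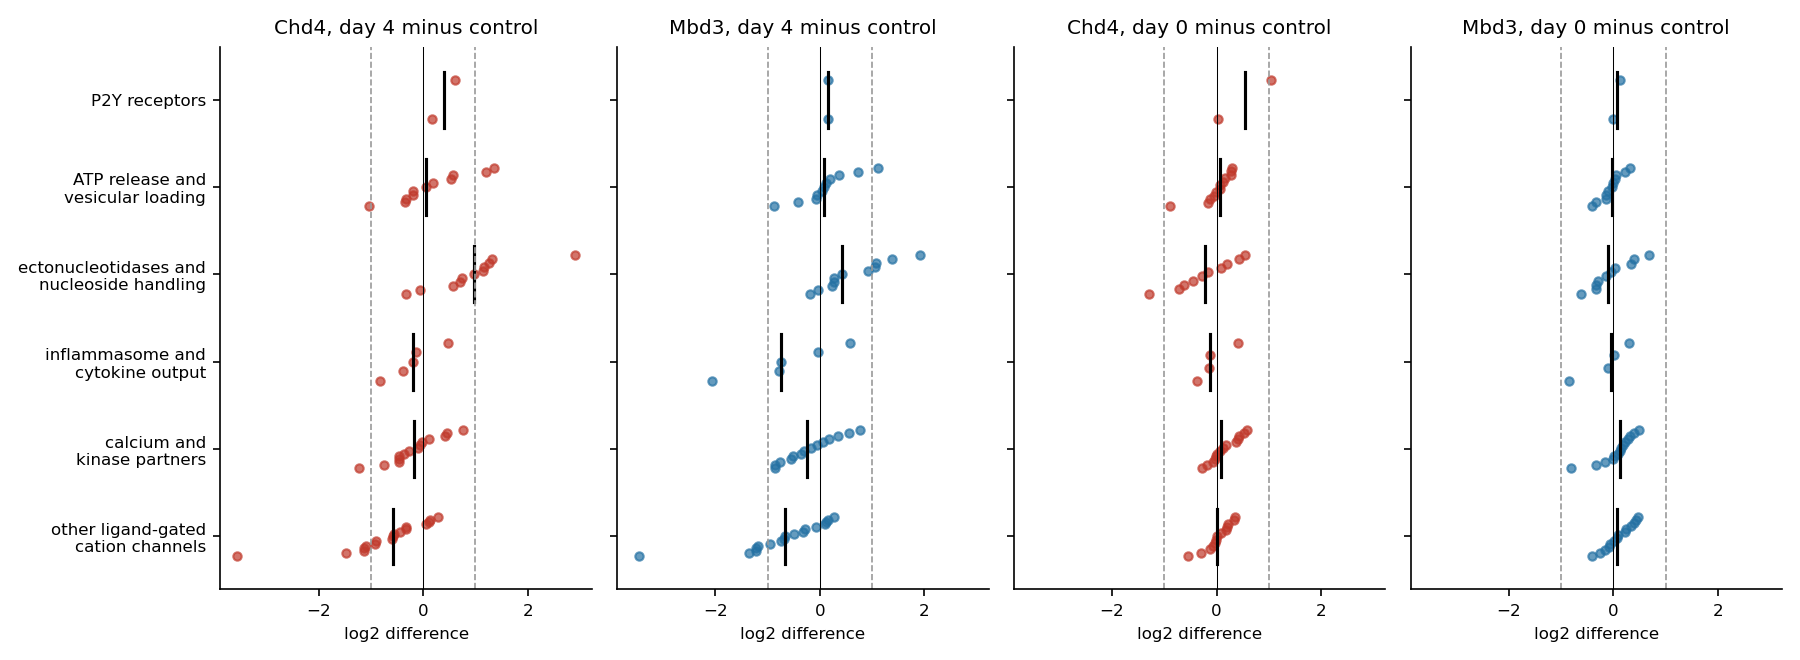
Log2 difference, knockdown minus control, of the compared genes in 6 lists around extracellular ATP (1 point per gene, black bar for the list median), with day 4 in the left panels and day 0 in the right ones; dashed lines mark 2-fold. At day 0 single genes, P2ry6 and Enpp3 in the Chd4 knockdown, pass 2-fold, whereas at day 4 nucleotide-handling genes spread to the right and other ligand-gated channels to the left.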

How the data were processed

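Total RNA of 6 samples was hybridized to Mouse Gene 2.0 ST arrays. The authors deposited linear intensities, 1 per probe set. The submitters' processing notes name RMA, with no version, and the series design text names GeneSpring GX 12.6.1. For the genome build, the sources used here give none. All intensities exceed 17, so a constant may have been added, which would shrink the folds of dim genes.

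Intensities were turned to log2 and not rescaled. The platform annotation gave 1 symbol for 23521 of the 34351 probe sets, several for 1814 and none for 9016. Of those with 1 symbol, 23328 had a gene ID in the RefSeq table of GRCm38.p6. These took the symbol given there, whether or not it differed. The probe set with the highest mean stood for its gene. Of 169 list symbols, 157 were matched and 12 were not analysed here. A gene was compared where its brighter array reached that array's median, and a difference counted as 2-fold from a log2 size of 1 on. The members and lists were chosen with earlier results of these data known.

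limma 3.58.1 in R 4.3.3 (lmFit, eBayes, Benjamini-Hochberg over 12926 genes, adjusted p under 0.05), tested on simulated data, fitted the day effect. Its p-values test the difference between the days. The error behind them comes from how unevenly the lines changed between the days. It does not come from a spread between replicate cultures, which no group had. Named genes were all members, both targets, 4 neighbours on each side, list genes past 2-fold (at most 3 per list and comparison), the 5 genes most like P2rx4 and P2rx7, and the brightest markers. Marker genes at low intensity, P2ry2, Nlrp3, Casp1, Il1b, Pycard, Nek7, Gsdmd, Entpd1, Fcer1g, Alpl, Slc29a1 and genes singled out beyond this rule were chosen after their values were seen. Alternatives were a subtracted constant of 16, array scaling, the probe set rule, a floor, the filter, the variance prior and the lines in the fit. Python 3.11.15, numpy 2.4.6 and pandas 2.3.3 were used.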

Additional observations from a re-analysis of the deposited data

Results flagged for a closer look

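The difference between day 4 and day 0 ran in opposite directions in knockdown and control cells for P2rx4 and P2rx2, by at least 0.25 on the log2 scale on each side. With 1 array per group, none of these differences was tested. P2rx4 was lower at day 4, at -0.83 under Chd4 knockdown and -0.50 under Mbd3 knockdown and higher in control, at 0.47, so that the day difference was -1.30 under Chd4 knockdown and -0.97 under Mbd3 knockdown relative to that in control. For P2rx4 these values equal the knockdown effect at day 4 minus that at day 0, which were 0.25 and 1.54 for Chd4 and 0.51 and 1.48 for Mbd3. The day 0 effect chose the gene, so the opposite directions rest largely on selected values and nothing is read from them. P2rx2 was higher at day 4 in the Chd4 and Mbd3 knockdowns, at 0.26 and 0.36, and lower in control, at -0.46, and relative to control its day difference was 0.72 under Chd4 knockdown and 0.82 under Mbd3 knockdown. The control intensity of P2rx2 at day 4, 37.2, lies under the array median of 39.6. In each pair both differences share the control arrays.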

How the results depend on the processing

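The count of members at least 2-fold higher in the Chd4 knockdown at day 4 was 1 in place of 2 with arrays shifted to a common median, with quantile normalization, and with intensities under 41.4 set to it; P2rx2 was the gene lost, and P2rx7 stayed past 2-fold at 1.00, 1.09 and 1.04. With 16 subtracted from each intensity, the count in the Mbd3 knockdown at day 4 was 2 in place of 1, as P2rx2 reached 1.06. In the fit of day, 1 member, P2rx4, was called in place of 0 without the control line, on the day 0 arrays that chose it. With Spearman's rho, 2 of the 5 genes most like P2rx4 and 1 of the 5 most like P2rx7 stayed among the most alike. The other 113 of 120 recomputed counts did not move, and no called member difference changed its sign. With 16 subtracted, counts past 2-fold over all genes rose in every comparison. At day 0 they were 324 in place of 169 (Chd4) and 206 in place of 91 (Mbd3). At day 4 they were 2285 in place of 1609 (Chd4) and 1711 in place of 1133 (Mbd3). Between the days they were 642 in place of 383 (Chd4), 640 in place of 360 (Mbd3) and 2501 in place of 1775 (control). Between the knockdowns they were 295 in place of 140 at day 0 and 266 in place of 147 at day 4. limma called 683 genes in place of 0 without the control line. The causes were not tested. Signal near the array median limits P2rx1, P2rx3, P2rx5 and P2rx6, for which small differences could not be seen.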
